A study of Mus musculus with 8 samples.

Results

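Serpins are a family of proteins most of which inhibit proteases, and their expression was followed in testes of 28-day-old mice in which Dmrt1, a DM-domain transcription factor gene, had been deleted with Cre recombinase. Members were the probe sets that carry exactly 1 gene symbol beginning with Serpin, and where a gene had several, the one brightest on average (mean log2 intensity over all 8 arrays) stood for it. That gave 56 probe sets for 40 genes, out of 18194 genes measured, and 17 of the 40 reached a log2 intensity of 4, an intensity of 16, on at least 2 arrays and were tested. The letter after Serpin names the clade: 14 members belong to clade A, 18 to B, 1 each to C, D, G and H, and 2 each to F and I. The RefSeq annotation lists 69 genes with such a symbol, and the others were not analysed here.

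All 3 groups were male mice on a mixed C57BL6/6J and 129 background that were homozygous for a floxed Dmrt1 allele, at postnatal day 28. The Sf1-Cre group (4 arrays) also carried Cre driven by the Sf1 (Nr5a1) promoter, the Dhh-Cre group (2 arrays) carried Cre driven by the Dhh promoter, and the control group (2 arrays) carried no Cre, so it had the floxed alleles as well. The labels call both promoters Sertoli cell-specific, and as background the Sf1 promoter is also active in Leydig cells of the testis and the Dhh promoter in Schwann cells. RNA came from whole testes, so fewer cells of a type and less RNA per cell cannot be told apart. The labels call the arrays biological replicates without saying whether animals were pooled, so the p-values measure the spread between these samples.

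A serpin presents a reactive loop that its protease cuts, and the cut traps the protease in an inactive complex with the serpin. Clade A, C, D, F and G members are mostly secreted and act on proteases of coagulation, fibrinolysis, complement and inflammation, whereas clade B members mostly stay inside cells and guard against leaked granule and lysosomal proteases. A few members inhibit nothing: Serpina6 carries corticosteroids in blood and Serpinh1 is a chaperone of collagen in the endoplasmic reticulum.

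The log2 level of Dmrt1 itself averaged 7.54 ± 0.33 on the Sf1-Cre arrays (SD, n = 4), 10.18 ± 0.35 on the arrays labelled Dhh-Cre (SD, n = 2) and 8.63 ± 0.18 on the control arrays (SD, n = 2). It was lower than in control in Sf1-Cre by limma's moderated test (log2 change -1.09 ± 0.25 SE, Benjamini-Hochberg adjusted p = 0.00375) and higher than in control on the arrays labelled Dhh-Cre (1.55 ± 0.28, adjusted p = 0.0012), although centring on 13 housekeeping genes turned the Dhh-Cre difference to -0.14. The place of the only Dmrt1 probe set relative to the deleted part is not known here, so the directions given for Dhh-Cre rest on that label. Median intensities were 15.2 to 15.9 on the Cre arrays and 13.7 to 14.1 on the control arrays, and 47.6% to 49.9% of the probe sets on an array reached the floor. All 15 marker genes of spermatids and all 11 of spermatocytes in the lists reached the floor on at least 1 array, as did all 8 of Leydig cells and 16 of 17 of Sertoli cells. The 15 spermatid genes, set here as a measure of late germ cells, all fell in Sf1-Cre and 14 fell in Dhh-Cre, with a summed intensity of 2919 to 11285 on the Sf1-Cre arrays and 1768 to 14290 on the arrays labelled Dhh-Cre, against 96233 to 106327 on the control arrays. Among all genes tested, 33.2% passed as lower in Sf1-Cre and 30.5% in Dhh-Cre. Housekeeping centring moves the median log2 change of all 13802 genes tested to -1.36 from 0.34 in Sf1-Cre against control and to -1.16 from 0.54 in Dhh-Cre against control. The 13 housekeeping genes themselves changed, 10 being higher and 1 lower than in control in each Cre line. Their summed intensity was 55380 to 59904 on the Sf1-Cre arrays and 55840 to 57099 on the arrays labelled Dhh-Cre, against 32111 to 33498 in control. The centred values thus show how far a call depends on the scale and are not a neutral correction. Where centring changed the call of a member, its change relative to the median of all genes, which no centring alters, is also given.

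Most of the Serpin genes that were detected had higher levels in both Cre lines than in control, and the largest differences in Sf1-Cre were those of Serpinb6b, Serpina3n, Serpinb9 and Serpinb1a. In Sf1-Cre against control 13 of the 17 tested members were higher, 2 were lower and 2 did not pass an adjusted p of 0.05, where 79.8% of all genes tested passed, 46.6% as higher and 33.2% as lower. In Dhh-Cre against control 11 were higher, 2 lower and 4 did not pass, beside 79.6% of all genes, 49.1% higher and 30.5% lower. The median log2 change of the 17 was 2.64 in Sf1-Cre and 2.00 in Dhh-Cre, beside 0.34 in Sf1-Cre and 0.54 in Dhh-Cre for all genes, and 15 members lay above the median of all genes in Sf1-Cre and 13 in Dhh-Cre. Both comparisons use the same 2 control arrays. The counts describe only members that reached the floor: 5 of the 17 (Serpina1b, Serpina1f, Serpina6, Serpinb8 and Serpinb9) reached it on no control array and so could only be low in control, while Serpina1c and Serpinb6c reached it on control arrays alone and so could only be lower in the Cre lines. With housekeeping centring 10 members were higher and 4 lower in Sf1-Cre, and 7 were higher and 5 lower in Dhh-Cre.

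**Figure D1:**
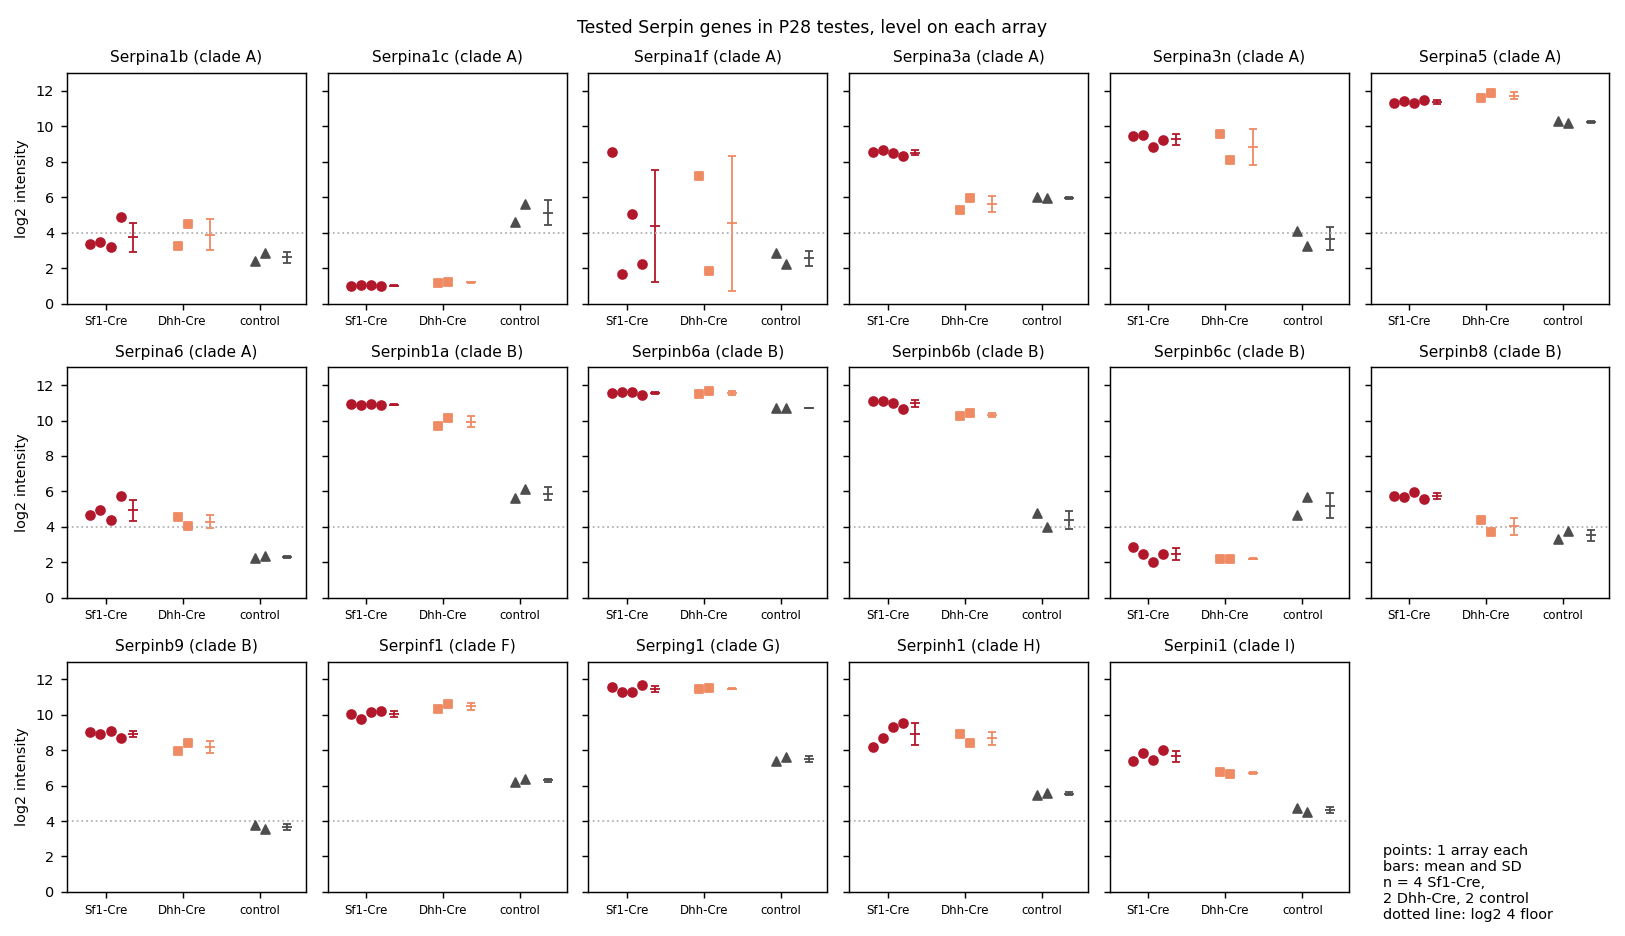
Log2 intensity (y axis) of each tested Serpin gene on every array, with 1 point per array, bars for the mean and SD, Sf1-Cre (n = 4) left of Dhh-Cre (n = 2) and control (n = 2), and the floor at log2 4 dotted. Serpinb6b sits at 10.25 to 11.11 on all Cre arrays and at 4.01 and 4.76 on the control arrays, and Serpina3a is high on the Sf1-Cre arrays alone.

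Within clade B, whose members mostly work inside cells, 5 of the 6 tested genes rose in Sf1-Cre and 4 in Dhh-Cre, and 1 fell in each. Among all genes tested, 46.6% passed as higher and 33.2% as lower in Sf1-Cre, and 49.1% and 30.5% in Dhh-Cre. Serpinb8 and Serpinb9 reached the floor on no control array and so could only be low in control. Serpinb6c reached it on control arrays alone, so the direction of this fall was fixed by the detection rule. With housekeeping centring 3 clade B members were higher and 2 lower in Sf1-Cre, and 3 were higher and 3 lower in Dhh-Cre. The median log2 change of the 6 was 3.61 in Sf1-Cre and 2.46 in Dhh-Cre, beside 0.34 and 0.54 for all genes. Serpinb6b, a mouse relative of the human granule protease inhibitor SERPINB6, had log2 levels of 11.11, 11.10, 11.0002 and 10.67 on the Sf1-Cre arrays and 10.25 and 10.42 on the arrays labelled Dhh-Cre, against 4.76 and 4.01 on the control arrays. All 6 Cre arrays were far above both control arrays, and the Sf1-Cre arrays lay above those labelled Dhh-Cre. Its level was 95.9-fold higher in Sf1-Cre (log2 change 6.58 ± 0.23 SE, adjusted p = 4.84e-07) and 61.8-fold higher in Dhh-Cre (5.95 ± 0.27, adjusted p = 2.11e-06) than in control.

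Serpinb1a, a homolog of the human inhibitor of neutrophil elastase and related granule proteases, was at 10.91, 10.87, 10.94 and 10.85 on the Sf1-Cre arrays and at 9.71 and 10.14 on the arrays labelled Dhh-Cre, against 5.63 and 6.13 in control. The 3 groups did not overlap, with Sf1-Cre highest and control lowest. It rose 32.3-fold in Sf1-Cre (5.01 ± 0.19, adjusted p = 5.61e-07) and 16.5-fold in Dhh-Cre (4.04 ± 0.22, adjusted p = 3.67e-06). A further probe set for the gene gave log2 differences from control of 5.27 in Sf1-Cre and 4.34 in Dhh-Cre.

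Serpinb9, an inhibitor of granzyme B in cells that carry or meet cytotoxic granules, was at 9.004, 8.89, 9.09 and 8.66 on the Sf1-Cre arrays and at 7.96 and 8.41 on the arrays labelled Dhh-Cre, against 3.77 and 3.54 in control. Both control arrays were under the floor, so its rises are lower bounds: at least 30.1-fold in Sf1-Cre (5.26 ± 0.19, adjusted p = 5.04e-07) and at least 18.1-fold in Dhh-Cre (4.53 ± 0.22, adjusted p = 2.51e-06). The other Serpinb9 probe set reached the floor on all arrays and differed less from control, by 2.21 in Sf1-Cre and 1.65 in Dhh-Cre on the log2 scale, so the size of the change depends on the probe set while its direction does not.

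Serpinb8, whose human homolog inhibits furin, was at 5.75, 5.68, 5.95 and 5.60 on the Sf1-Cre arrays and at 4.37 and 3.69 on the arrays labelled Dhh-Cre, against 3.31 and 3.76 in control. Every Sf1-Cre array was above every other array, whereas 1 of the arrays labelled Dhh-Cre lay between the control arrays. Another probe set for the gene stayed under the floor on every array. Serpinb8 rose at least 3.35-fold in Sf1-Cre (2.22 ± 0.23, adjusted p = 5.24e-05), a call that housekeeping centring removed (0.52, adjusted p = 0.123). Relative to the median of all genes its changes against control were 1.88 in Sf1-Cre and -0.04 in Dhh-Cre. In Dhh-Cre its difference from control was 0.50 ± 0.26 (adjusted p = 0.116). It passed as lower with housekeeping centring (-1.20, adjusted p = 0.00972) and as higher without Dhh-Cre replicate 2 (0.84, adjusted p = 0.023).

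The remaining tested members of clade B are the neighbouring genes Serpinb6a and Serpinb6c. Serpinb6a, a broadly expressed intracellular inhibitor, was at 11.57, 11.62, 11.60 and 11.44 on the Sf1-Cre arrays and at 11.49 and 11.65 on the arrays labelled Dhh-Cre, against 10.69 and 10.70 in control. The Cre lines overlapped each other and lay above control. The rises were 1.82-fold in Sf1-Cre (0.86 ± 0.13, adjusted p = 0.000413) and 1.84-fold in Dhh-Cre (0.88 ± 0.15, adjusted p = 0.000796), and both turned negative with housekeeping centring (-0.83 in Sf1-Cre and -0.81 in Dhh-Cre). Relative to the median of all genes they were 0.52 in Sf1-Cre and 0.34 in Dhh-Cre on the log2 scale.

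Serpinb6c was at 2.85, 2.45, 2.02 and 2.48 on the Sf1-Cre arrays and at 2.19 and 2.21 on the arrays labelled Dhh-Cre, against 4.70 and 5.69 in control. Only the control arrays reached the floor. It fell at least 2.28-fold in Sf1-Cre (-2.74 ± 0.31, adjusted p = 8.22e-05) and at least 2.28-fold in Dhh-Cre (-2.99 ± 0.35, adjusted p = 0.000114). Leaving out either control array leaves it below the detection rule and untested. The suffix of its probe set, like that of Serpinb1a, marks probes that can match several transcripts, so signal from related genes cannot be told apart from its own.

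The other 12 clade B members stayed under the floor on every array. Their highest values on any array lay between 1.34 and 3.58. Among them are the epidermal and mammary genes Serpinb5, Serpinb12 and Serpinb7, the macrophage and stress gene Serpinb2, and Serpinb9b, Serpinb9c, Serpinb9d and Serpinb9g of the granzyme inhibitor cluster. Beside the clade B rises, the 10 macrophage genes in the lists had a summed intensity of 21782 to 24574 on the Sf1-Cre arrays and 14406 to 14863 on the arrays labelled Dhh-Cre, against 3815 to 4468 in control. Of these genes 9 were higher in Sf1-Cre, and 9 were higher and 1 lower in Dhh-Cre, and all 10 reached the floor on at least 1 array. For all genes tested the share that passed as higher was 46.6% in Sf1-Cre and 49.1% in Dhh-Cre. The part of macrophages in the clade B levels was not tested.

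Clade A holds the secreted antitrypsin and antichymotrypsin types. Of its 7 tested members 4 rose, 1 fell and 2 did not pass in Sf1-Cre, and 3 rose, 1 fell and 3 did not pass in Dhh-Cre. Among all genes tested, 46.6% passed as higher and 33.2% as lower in Sf1-Cre, and 49.1% and 30.5% in Dhh-Cre. Serpina1b, Serpina1f and Serpina6 reached the floor on no control array and so could only be low in control. Serpina1c reached it on control arrays alone, so the direction of this fall was fixed by the detection rule. With housekeeping centring 3 clade A members were higher and 2 lower in Sf1-Cre, and 1 was higher and 2 lower in Dhh-Cre. The median log2 change of the 7 was 1.82 in Sf1-Cre and 1.49 in Dhh-Cre, beside 0.34 and 0.54 for all genes. Serpina3n, a mouse antichymotrypsin of the acute phase that also inhibits granzyme B and elastase, was at 9.47, 9.53, 8.85 and 9.22 on the Sf1-Cre arrays and at 9.55 and 8.11 on the arrays labelled Dhh-Cre, against 4.12 and 3.23 in control. All Cre arrays were far above control and the Cre lines overlapped. It rose at least 37.0-fold in Sf1-Cre (5.60 ± 0.42, adjusted p = 1.03e-05) and at least 27.3-fold in Dhh-Cre (5.16 ± 0.49, adjusted p = 3.72e-05).

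Serpina3a, another gene of the antichymotrypsin group, was at 8.58, 8.67, 8.49 and 8.31 on the Sf1-Cre arrays and at 5.31 and 5.96 on the arrays labelled Dhh-Cre, against 6.00 and 5.93 in control. The Sf1-Cre arrays stood together above all others, and the range of the arrays labelled Dhh-Cre overlapped that of the control arrays. Relative to the median of all genes, the changes of Serpina3a against control were 2.21 in Sf1-Cre and -0.87 in Dhh-Cre. It rose 5.86-fold in Sf1-Cre (2.55 ± 0.20, adjusted p = 1.33e-05). In Dhh-Cre the difference was -0.33 ± 0.23 (adjusted p = 0.22), and it passed as lower without Dhh-Cre replicate 2 (-0.66, adjusted p = 0.0285) and with housekeeping centring (-2.03, adjusted p = 0.000205).

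Serpina5, the protein C inhibitor, whose loss makes male mice infertile, was at 11.29, 11.43, 11.29 and 11.49 on the Sf1-Cre arrays and at 11.60 and 11.88 on the arrays labelled Dhh-Cre, against 10.30 and 10.19 in control. The 3 groups did not overlap, with the arrays labelled Dhh-Cre highest. It rose 2.19-fold in Sf1-Cre (1.13 ± 0.14, adjusted p = 0.000163) and 2.82-fold in Dhh-Cre (1.49 ± 0.17, adjusted p = 7.98e-05), and with housekeeping centring the values were -0.57 in Sf1-Cre and -0.20 in Dhh-Cre. Relative to the median of all genes they were 0.79 in Sf1-Cre and 0.96 in Dhh-Cre.

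Serpina6, the corticosteroid-binding globulin, was at 4.67, 4.93, 4.39 and 5.76 on the Sf1-Cre arrays and at 4.57 and 4.04 on the arrays labelled Dhh-Cre, against 2.25 and 2.35 in control. All Cre arrays reached the floor and neither control array did. It rose at least 1.92-fold in Sf1-Cre (2.64 ± 0.36, adjusted p = 0.000249) and at least 1.23-fold in Dhh-Cre (2.00 ± 0.42, adjusted p = 0.00244). In Dhh-Cre the call was lost when values under the floor were set to it (0.30, adjusted p = 0.538) and with housekeeping centring (0.31, adjusted p = 0.481). Relative to the median of all genes, the changes of Serpina6 were 2.30 in Sf1-Cre and 1.47 in Dhh-Cre.

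Serpina1b and Serpina1c are copies of the antitrypsin gene, which in humans is the main plasma inhibitor of neutrophil elastase. Serpina1c was at 1.02, 1.04, 1.02 and 1.00 on the Sf1-Cre arrays and at 1.16 and 1.23 on the arrays labelled Dhh-Cre, against 4.62 and 5.65 in control. It fell at least 2.20-fold in Sf1-Cre (-4.11 ± 0.25, adjusted p = 3.92e-06) and at least 2.20-fold in Dhh-Cre (-3.94 ± 0.29, adjusted p = 1.25e-05), and without either control array it is not tested. Serpina1b, read by a probe set whose suffix marks probes shared with other transcripts, was at 3.37, 3.48, 3.17 and 4.91 on the Sf1-Cre arrays and at 3.27 and 4.50 on the arrays labelled Dhh-Cre, against 2.39 and 2.84 in control. Only 1 array in each Cre line reached the floor, and the differences of 1.12 ± 0.53 in Sf1-Cre (adjusted p = 0.0827) and 1.28 ± 0.61 in Dhh-Cre (adjusted p = 0.0865) did not pass. In Dhh-Cre it passed with replicate number as a block (adjusted p = 0.0124), with the 2 groups alone (adjusted p = 0.043) and without Dhh-Cre replicate 1 (1.89, adjusted p = 0.0411).

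The remaining tested clade A gene, Serpina1f, split the arrays within each Cre line. It was at 8.53, 1.68, 5.06 and 2.21 on the Sf1-Cre arrays and at 7.22 and 1.85 on the arrays labelled Dhh-Cre, against 2.84 and 2.26 in control. Replicates 1 and 3 of Sf1-Cre and replicate 1 of Dhh-Cre were the only arrays above the floor, and the differences from control, 1.82 ± 2.08 in Sf1-Cre (adjusted p = 0.439) and 1.98 ± 2.40 in Dhh-Cre (adjusted p = 0.465), did not pass. Its SD was 3.14 in Sf1-Cre and 3.80 in Dhh-Cre, where no other tested member exceeded 0.79 in Sf1-Cre or 1.01 in Dhh-Cre. The same 3 arrays were high for Spink8, a Kazal-type protease inhibitor gene of the epididymis, at 12.05, 5.79, 10.49 and 6.46 on the Sf1-Cre arrays and 11.55 and 4.48 on those labelled Dhh-Cre, against 6.87 and 3.11 in control. Adam7, an epididymal surface protein gene, was above the floor on 2 of these 3 arrays and on no other, at 6.72, 2.20, 3.72 and 2.43 on the Sf1-Cre arrays and 7.59 and 1.92 on those labelled Dhh-Cre, against 2.58 and 2.23 in control. The 6 epididymal genes measured had a summed intensity of 99.3 to 4411 on the Sf1-Cre arrays and 76.6 to 3252 on the arrays labelled Dhh-Cre, against 59.8 to 171 in control, and 2 of the 6 were under the floor on every array. Most of the highest sum was Spink8, whose intensity on Sf1-Cre replicate 1 was 4250. Defb15 of the same list was not split in this way, at 5.05, 4.66, 4.99 and 5.24 on the Sf1-Cre arrays and 5.13 and 5.23 on those labelled Dhh-Cre, and it rose in both lines, while Ros1 fell in both. The part of epididymal tissue in Serpina1f was not tested. Without these 3 arrays 14 members were higher and 2 lower in Sf1-Cre, and 12 were higher and 2 lower in Dhh-Cre, Serpina1b passing in both and Serpina1f leaving the test. Dhh-Cre is then 1 array, replicate 2, which is assumed to vary like the arrays of the other groups.

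**Figure D2:**
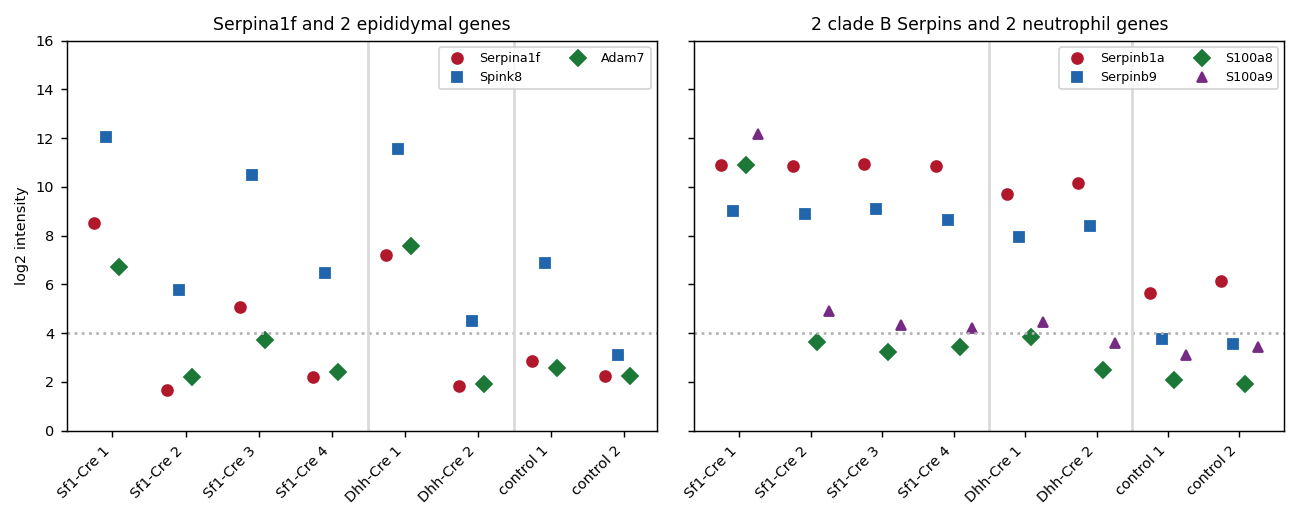
Log2 intensity (y axis) on each array (x axis, Sf1-Cre, Dhh-Cre, control), 1 point per gene and array, of Serpina1f, Spink8 and Adam7 in the left panel and of Serpinb1a, Serpinb9, S100a8 and S100a9 in the right panel. Serpina1f is at 8.53 and 5.06 on Sf1-Cre replicates 1 and 3 and at 7.22 on Dhh-Cre replicate 1, the arrays on which Spink8 is highest, and S100a8 and S100a9 are high on Sf1-Cre replicate 1 alone.

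The 7 low clade A members, among them Serpina7, Serpina9, Serpina10 and Serpina12, had highest values on any array between 2.04 and 3.35. The 8 liver plasma protein genes measured were set beside clade A because the liver is the main source of circulating members: their summed intensity was 187 to 240 on the Sf1-Cre arrays and 185 to 211 on the arrays labelled Dhh-Cre, against 115 to 130 in control, and 3 of the 8 stayed under the floor on every array. Of the 5 tested, 2 were higher and 2 lower in each Cre line, to be read against the shares of all genes given above.

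Most of clade A lies in 1 cluster on chromosome 12, where RefSeq places 28 Serpina genes in GRCm38.p6, of which 13 were measured and 7 tested. The neighbours Serpina5 and Serpina3a, and the copies Serpina1b and Serpina1c, are shown by the 300 bases from 250 before to 50 after the gene start, as RefSeq gives them on GRCm38.p6. Serpina5 and Serpina3a are adjacent, whereas Serpina1d and Serpina1a lie between Serpina1b and Serpina1c. The pairs were chosen because their genes received different calls, that of Serpina1b being a difference near the floor that did not pass. Capitals mark ACANTGT, a core of the motif bound by DM-domain factors such as Dmrt1, and TATAAA, the TATA motif, searched on both strands, and each line reads 5′ to 3′ in the sense of the gene.
Serpina1b, chr12:103738140-103738439, minus strand: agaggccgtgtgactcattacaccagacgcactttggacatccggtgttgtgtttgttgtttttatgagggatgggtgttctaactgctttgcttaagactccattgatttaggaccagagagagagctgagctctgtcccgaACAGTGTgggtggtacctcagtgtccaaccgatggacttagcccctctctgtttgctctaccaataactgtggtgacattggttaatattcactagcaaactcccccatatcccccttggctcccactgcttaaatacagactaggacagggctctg
Serpina1c, chr12:103904901-103905200, minus strand: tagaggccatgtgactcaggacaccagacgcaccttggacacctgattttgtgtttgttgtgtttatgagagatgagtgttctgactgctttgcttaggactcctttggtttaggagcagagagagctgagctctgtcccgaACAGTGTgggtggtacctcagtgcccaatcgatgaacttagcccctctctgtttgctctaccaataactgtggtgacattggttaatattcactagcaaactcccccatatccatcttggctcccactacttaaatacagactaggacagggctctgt
Serpina5, chr12:104100863-104101162, plus strand: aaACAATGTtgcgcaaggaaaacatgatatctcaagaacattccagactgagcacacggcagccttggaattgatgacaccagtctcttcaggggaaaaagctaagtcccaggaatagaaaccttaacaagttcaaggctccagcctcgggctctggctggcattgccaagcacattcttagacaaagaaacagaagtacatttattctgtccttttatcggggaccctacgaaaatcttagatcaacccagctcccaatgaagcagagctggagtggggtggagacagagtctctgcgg
Serpina3a, chr12:104112474-104112773, plus strand: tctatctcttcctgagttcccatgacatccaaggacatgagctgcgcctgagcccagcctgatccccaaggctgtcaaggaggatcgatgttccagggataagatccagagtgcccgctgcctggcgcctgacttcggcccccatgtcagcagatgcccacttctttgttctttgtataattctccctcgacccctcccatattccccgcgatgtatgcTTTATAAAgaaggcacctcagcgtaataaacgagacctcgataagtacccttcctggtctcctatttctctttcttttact

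Serpina1b and Serpina1c share 276 of 298 aligned bases (92.6%), and each holds 1 match to ACANTGT, starting at -107 and -108 from the gene start. Serpina5 and Serpina3a share 48.8%. Serpina5 holds ACANTGT at -248, and Serpina3a holds overlapping TATAAA matches at -31 and -29. Promoters were listed for 14 of the 17 tested members, 15 in all, and not for Serpina6, Serpinb1a and Serping1. ACANTGT occurs in 3 of the 15, 20.0%, beside 7.54% of all 32851 promoters, and the nearly identical windows of Serpina1b and Serpina1c are among these 3. AAGGTCA, the Nr5a motif that Sf1 binds, occurs in 0 of 15 (4.72% of all), and TTCNNNGAA, the motif of the STAT factors, in 2 of 15 (8.3% of all). TATAAA occurs in 2 of 15 (13.6% of all). These matches describe letters in these windows and say nothing of binding.

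**Figure D3:**
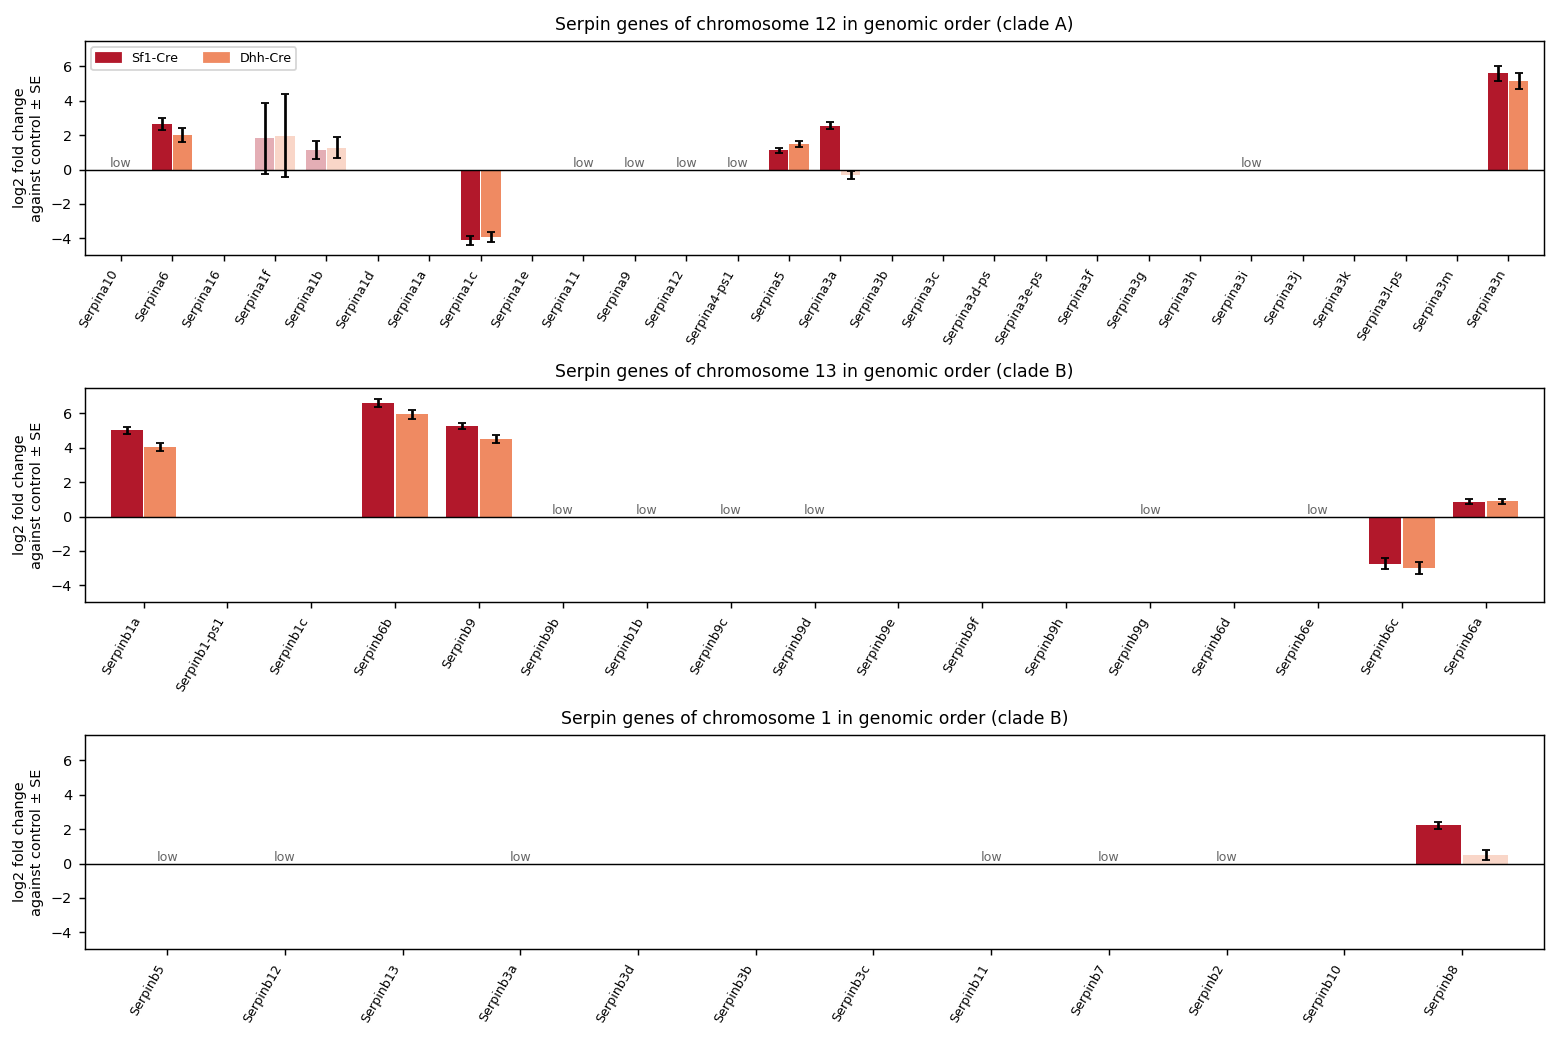
Serpin genes of chromosomes 12, 13 and 1 in their RefSeq order along the x axis, as ranks without distances, with bars for the log2 change against control and its SE (y axis) of tested genes, Sf1-Cre left of Dhh-Cre, pale where it did not pass, the word low for genes under the floor, and no mark for genes not analysed here. Serpina3a, at 2.55 in Sf1-Cre and -0.33 in Dhh-Cre, stands beside Serpina5, and Serpinb6c, at -2.74 in Sf1-Cre, beside Serpinb6a.

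Along chromosome 13, 11 of 17 Serpinb genes were measured and 5 tested. Serpinb6b and Serpinb9 are adjacent there and rose in both Cre lines, and the next genes, Serpinb9b, Serpinb1b, Serpinb9c and Serpinb9d, were all low. On chromosome 1, 7 of 12 Serpinb genes were measured and Serpinb8 alone was tested.

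The tested members of clades F, G, H and I, 1 in each, all rose in both Cre lines. Among all genes tested, 46.6% passed as higher in Sf1-Cre and 49.1% in Dhh-Cre. Serping1, the C1 inhibitor, which restrains the complement proteases C1r and C1s and plasma kallikrein, was at 11.57, 11.29, 11.28 and 11.65 on the Sf1-Cre arrays and at 11.46 and 11.49 on the arrays labelled Dhh-Cre, against 7.39 and 7.64 in control. All Cre arrays lay together above control. It rose 15.3-fold in Sf1-Cre (3.93 ± 0.16, adjusted p = 7.44e-07) and 15.5-fold in Dhh-Cre (3.96 ± 0.19, adjusted p = 2.51e-06).

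Serpinf1, which encodes the anti-angiogenic factor PEDF and inhibits no known protease, was at 10.02, 9.78, 10.15 and 10.22 on the Sf1-Cre arrays and at 10.33 and 10.61 on the arrays labelled Dhh-Cre, against 6.22 and 6.35 in control. The arrays labelled Dhh-Cre were highest and control lowest, with no overlap. It rose 13.5-fold in Sf1-Cre (3.76 ± 0.17, adjusted p = 9.78e-07) and 18.2-fold in Dhh-Cre (4.18 ± 0.20, adjusted p = 2.31e-06), and another probe set gave log2 differences from control of 2.65 in Sf1-Cre and 2.53 in Dhh-Cre.

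Serpinh1, the collagen chaperone HSP47, was at 8.16, 8.71, 9.29 and 9.51 on the Sf1-Cre arrays and at 8.93 and 8.41 on the arrays labelled Dhh-Cre, against 5.47 and 5.59 in control. The Cre lines overlapped and lay above control, and the Sf1-Cre arrays were spread over more than 1 log2 unit. It rose 10.5-fold in Sf1-Cre (3.39 ± 0.37, adjusted p = 6.64e-05) and 8.81-fold in Dhh-Cre (3.14 ± 0.42, adjusted p = 0.000224). The suffix of this probe set, like that of Serpina1b, marks probes shared with other transcripts. Another Serpinh1 probe set gave log2 differences from control of 3.09 in Sf1-Cre and 2.82 in Dhh-Cre.

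Serpini1, neuroserpin, a brain inhibitor of tissue plasminogen activator, was at 7.38, 7.82, 7.43 and 7.99 on the Sf1-Cre arrays and at 6.75 and 6.67 on the arrays labelled Dhh-Cre, against 4.72 and 4.52 in control. The 3 groups were apart, with Sf1-Cre highest. It rose 8.21-fold in Sf1-Cre (3.04 ± 0.20, adjusted p = 5.86e-06) and 4.26-fold in Dhh-Cre (2.09 ± 0.24, adjusted p = 8.9e-05), and the Dhh-Cre call was lost with housekeeping centring (0.40, adjusted p = 0.132). Another probe set gave smaller differences, 1.46 in Sf1-Cre and 0.97 in Dhh-Cre. Relative to the median of all genes, the changes of the probe set used were 2.70 in Sf1-Cre and 1.56 in Dhh-Cre.

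Beside these 4 genes, all 7 tested fibroblast genes, which include Dcn and the collagen gene Col1a1, rose in both Cre lines, with a summed intensity of 13641 to 15580 on the Sf1-Cre arrays and 14594 to 18813 on the arrays labelled Dhh-Cre, against 1905 to 1964 in control. The share of all genes that passed as higher was 46.6% in Sf1-Cre and 49.1% in Dhh-Cre. The 8 Leydig cell genes summed to 27431 to 33995 on the Sf1-Cre arrays and 21044 to 25329 on the arrays labelled Dhh-Cre, against 6245 to 7155 in control. The part of these cells in the Serpin levels was not tested.

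Antithrombin, heparin cofactor II, antiplasmin and pancpin, encoded by Serpinc1, Serpind1, Serpinf2 and Serpini2, were low on every array. Serpinc1 was at 2.89, 3.04, 3.01 and 3.45 on the Sf1-Cre arrays and at 3.20 and 2.85 on those labelled Dhh-Cre, against 3.32 and 3.67 in control. Serpind1 was at 2.85, 2.75, 2.84 and 2.77 on the Sf1-Cre arrays and at 2.72 and 2.45 on those labelled Dhh-Cre, against 2.90 and 3.21 in control. Serpinf2 lay between 2.49 and 2.89 and Serpini2 between 1.89 and 3.23 over the 8 arrays. No order is read from values under the floor.

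**Figure D4:**
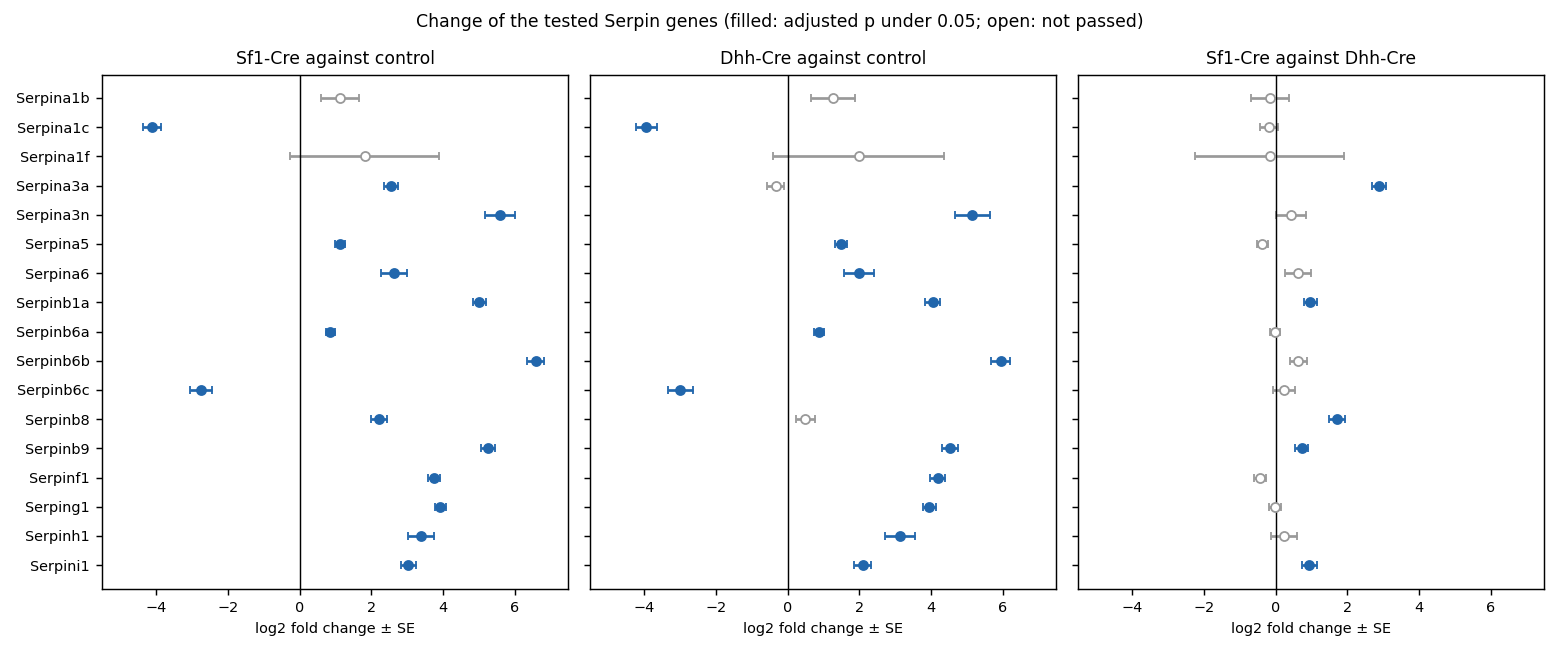
Log2 change and SE (x axis) of each tested Serpin gene (y axis, by clade) in 3 panels, Sf1-Cre against control, Dhh-Cre against control and Sf1-Cre against Dhh-Cre, with filled points for adjusted p under 0.05 and open points otherwise. Serpinb6b has the largest change against control (6.58 in Sf1-Cre and 5.95 in Dhh-Cre), Serpina1c and Serpinb6c are negative, and Serpina3a differs most between the lines (2.55 in Sf1-Cre and -0.33 in Dhh-Cre against control).

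Between the Cre lines, 5 of the 17 tested members were higher in Sf1-Cre than in Dhh-Cre and none was lower, where 24.6% of all genes passed, 12.9% as higher and 11.8% as lower. The median log2 difference of the 17 was 0.25, beside 0.02 for all genes. At an unadjusted p under 0.05 limma gave 6 higher and 2 lower. The 5 were Serpina3a (log2 difference 2.88 ± 0.20, 7.37-fold, adjusted p = 0.000177), Serpinb8 (1.72 ± 0.23, 3.29-fold, adjusted p = 0.00245), Serpinb1a (0.97 ± 0.19, 1.96-fold, adjusted p = 0.00989), Serpini1 (0.94 ± 0.20, 1.92-fold, adjusted p = 0.015) and Serpinb9 (0.73 ± 0.19, 1.66-fold, adjusted p = 0.028), and for each every Sf1-Cre array lay above both arrays labelled Dhh-Cre. Of these genes 3 are clade B, 1 is clade A and 1 is clade I. Serpinb6b, Serpina5 and Serpinf1, which did not pass, did not overlap between the lines either, nor did Serpina1c, whose Cre arrays were all under the floor. The share of all genes without overlap was not computed, so the lack of overlap is not read as particular to these members.

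Only the Serpina3a and Serpinb8 differences kept their call in every alternative run that tested them, and Serpinb8 was not tested at a floor of log2 6. Without Dhh-Cre replicate 1 the other 3 lost it (Serpinb1a adjusted p = 0.0917, Serpini1 0.0832 and Serpinb9 0.215), so the count fell to 2. Serpini1 also lost it without Dhh-Cre replicate 2 (adjusted p = 0.0776), and Serpinb9 without Sf1-Cre replicate 2 or 3 (adjusted p = 0.0621 and 0.065). With replicate number as a block 3 of the 5 passed, Serpini1 (0.89, adjusted p = 0.0523) and Serpinb9 (0.76, adjusted p = 0.0796) not. Serpina5 had a difference of -0.36 ± 0.14 (adjusted p = 0.104), Serpinf1 of -0.43 ± 0.17 (adjusted p = 0.106), and Serpinb6b of 0.63 ± 0.23 (adjusted p = 0.0867), none passing. Serpinb6b passed with the 2 groups alone (adjusted p = 0.0499) and without either control array (adjusted p = 0.0489 each), and Serpina5 passed as lower with trended robust moderation (adjusted p = 0.0461). Of the 10 macrophage genes, 4 were higher in Sf1-Cre than in Dhh-Cre and none lower, and of the 8 tested granulosa cell genes 4 were higher and 0 lower. Among the 16 tested Sertoli cell genes 0 were higher and 11 lower, and the 11 include Dmrt1, the gene that was deleted. Among the 8 peritubular cell genes 0 were higher and 4 lower. Over all genes 12.9% passed as higher and 11.8% as lower. The part of these cell types in the differences was not tested.

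Sf1-Cre replicate 1 held high levels of the granulocyte genes S100a8 and S100a9, at 10.90 and 12.17, where the other arrays were at 1.94 to 3.83 and 3.11 to 4.90. Both belong to a list of 11 mast cell and granule leukocyte genes, of which 3 stayed under the floor on every array. The mast cell genes Cma1, Cpa3, Mcpt4 and Tpsb2 were also highest on this array, at 7.05, 6.84, 5.77 and 4.84. Kit and Prf1 of the list were instead at their lowest among the 4 Sf1-Cre arrays there, at 5.32 and 3.58. Over the 17 tested members Sf1-Cre replicate 1 was the highest of the 4 Sf1-Cre arrays in 3 and the lowest in 3. Without it the counts were the same in each comparison, 13 higher and 2 lower in Sf1-Cre against control and 5 higher between the Cre lines.

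The proteases that serpins act on were taken from a list of 40 genes, of which 38 were measured and 22 tested. Of the 22, 14 rose, 6 fell and 2 did not pass in Sf1-Cre, and 13 rose, 8 fell and 1 did not pass in Dhh-Cre, with a median log2 change of 1.97 in Sf1-Cre and 1.94 in Dhh-Cre. Housekeeping centring gave 9 rises and 8 falls in Sf1-Cre and 7 rises and 9 falls in Dhh-Cre. Of all genes tested 79.8% passed in Sf1-Cre and 79.6% in Dhh-Cre, and the counts of proteases, receptors and other inhibitors are to be read against these shares. The complement proteases that Serping1 restrains were among the rises. C1ra rose 26.4-fold in Sf1-Cre and 24.5-fold in Dhh-Cre, and C1s1 rose 24.2-fold in Sf1-Cre and 21.3-fold in Dhh-Cre. Masp1 of the lectin pathway rose 63.9-fold in Sf1-Cre and 38.9-fold in Dhh-Cre. Masp2 rose at least 1.62-fold in Sf1-Cre, -0.56 on the log2 scale with housekeeping centring. In Dhh-Cre it passed as lower and is counted among the 8 falls. Every control array and every array labelled Dhh-Cre was under the floor for Masp2, however, and setting such values to the floor left no difference. No fall of Masp2 is therefore read in Dhh-Cre.

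Plat, tissue plasminogen activator and the target of neuroserpin, rose at least 4.05-fold in Sf1-Cre and at least 9.96-fold in Dhh-Cre, and was lower in Sf1-Cre than in Dhh-Cre (-1.30 on the log2 scale, adjusted p = 0.00371). The mean level of Plau, urokinase, was under the floor in all 3 groups. The lysosomal cathepsin Ctss rose 14.4-fold in Sf1-Cre and 9.25-fold in Dhh-Cre, and Ctsl 3.82-fold in Sf1-Cre and 4.10-fold in Dhh-Cre, both calls of Ctsl being lost with housekeeping centring (0.24, adjusted p = 0.191 in Sf1-Cre, and 0.34, adjusted p = 0.12 in Dhh-Cre). Outside the naming rule and chosen after their values were seen, several proteases that Serpina5 or Serping1 inhibits fell. Acr, the sperm acrosin, was 17.6-fold lower in Sf1-Cre and 86.4-fold lower in Dhh-Cre than in control. Proc, protein C, fell at least 22.2-fold in both lines, Klkb1, plasma kallikrein, at least 16.3-fold in Sf1-Cre and at least 17.7-fold in Dhh-Cre, and F11, coagulation factor XI, at least 17.8-fold in Sf1-Cre and at least 18.0-fold in Dhh-Cre.

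Of 16 tested receptors and cofactors of serpins and their proteases, 13 rose, 2 fell and 1 did not pass in each Cre line, while housekeeping centring gave 5 rises and 5 falls in Sf1-Cre and 4 of each in Dhh-Cre. Without centring, 79.8% of all genes passed in Sf1-Cre and 79.6% in Dhh-Cre. Lrp1, which clears serpin-protease complexes, rose 12.6-fold in Sf1-Cre and 11.4-fold in Dhh-Cre. Procr, the protein C receptor, rose at least 36.5-fold in Sf1-Cre and at least 42.5-fold in Dhh-Cre. The plasminogen receptor subunits S100a10 and Anxa2 rose 6.29-fold and 3.50-fold in Sf1-Cre, and 6.82-fold and 3.55-fold in Dhh-Cre. Anxa2 lost both calls with housekeeping centring (0.11, adjusted p = 0.579 in Sf1-Cre, and 0.13, adjusted p = 0.581 in Dhh-Cre). Vldlr, which binds serpin complexes, was the only gene of the list that differed between the lines, 6.35-fold higher in Sf1-Cre than in Dhh-Cre (adjusted p = 0.003). The list also holds Plin2, a lipid droplet protein gene rather than a receptor or cofactor, which is counted among the 13 rises in Sf1-Cre. Plin2 rose 1.82-fold in Sf1-Cre, -0.83 with housekeeping centring.

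Among 29 tested genes listed as protease inhibitors of other families, 17 rose, 6 fell and 6 did not pass in Sf1-Cre, and 19 rose, 5 fell and 5 did not pass in Dhh-Cre. The counts take in Pttg1ip, which is not known as a protease inhibitor. Its mean log2 level was 12.41 in Sf1-Cre, 12.65 in Dhh-Cre and 11.10 in control. Housekeeping centring gave 5 rises and 12 falls in Sf1-Cre and 5 rises and 11 falls in Dhh-Cre. Without centring, 79.8% of all genes passed in Sf1-Cre and 79.6% in Dhh-Cre. Timp1, an inhibitor of matrix metalloproteases, rose 29.4-fold in Sf1-Cre and 42.6-fold in Dhh-Cre, and Timp3 5.97-fold in both. Cast, the calpain inhibitor, rose 11.4-fold in Sf1-Cre and 9.75-fold in Dhh-Cre, although both calls were lost when all its probe sets were averaged (0.39, adjusted p = 0.196 in Sf1-Cre, and -0.54, adjusted p = 0.129 in Dhh-Cre). Kng1, kininogen, fell at least 7.53-fold in Sf1-Cre and at least 7.68-fold in Dhh-Cre. Wfdc1 rose 3.22-fold in Dhh-Cre, a change that housekeeping centring brought to -0.0087, and had a difference of -0.56 in Sf1-Cre (adjusted p = 0.0837), which passed as lower with replicate number as a block (-0.77, adjusted p = 0.047). Agt, angiotensinogen, a serpin by structure without the symbol, rose 26.6-fold in Sf1-Cre and 9.23-fold in Dhh-Cre, and was 2.89-fold higher in Sf1-Cre than in Dhh-Cre (adjusted p = 0.00237).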

How the data were processed

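RNA of whole testes was measured on 8 Affymetrix arrays of 45101 probe sets, 4 Sf1-Cre, 2 Dhh-Cre and 2 control. The deposited values are intensities on a linear scale, made with GCRMA per the submitters' processing notes, with version and settings not given in the sources used here. Depth does not apply to arrays, whose number limits the precision. From these deposited intensities log2 was taken here. Symbols of 34958 probe sets with 1 symbol were updated by Entrez identifier to GRCm38.p6. The comparisons were made in R 4.3.3 by limma 3.58.1 (3 group means, moderated variance, 5 residual degrees of freedom), 2-sided, with Benjamini-Hochberg adjustment over 13802 genes, and tested on simulated data. A fold against a group mean under the floor is a bound with the dim values set to the floor, and none is given where both means are under it. Named genes are the clade members of fixed interest, the 4 largest rises and falls of clades A and B, those that passed between the lines, and of each protease, receptor and inhibitor list those of lowest p, 4 for Sf1-Cre over control and 2 for the lines over each other, plus Plat, Plau, Ctsl, Lrp1 and Timp1. The members and lists were chosen with earlier results of these data known. Promoters and motif matches were read with Biopython 1.88. The settings tried are given in the closing section.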

Additional observations from a re-analysis of the deposited data

Results flagged for a closer look

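The differences between the Cre lines passed limma's test of the difference itself for 5 Serpin genes, each higher in Sf1-Cre than in Dhh-Cre: by 2.88 on the log2 scale for Serpina3a, 1.72 for Serpinb8, 0.97 for Serpinb1a, 0.94 for Serpini1 and 0.73 for Serpinb9. Among all genes tested 24.6% passed between the lines, 12.9% as higher in Sf1-Cre. In each of the 5 the 4 Sf1-Cre arrays lay above both arrays labelled Dhh-Cre. Serpinb6b, Serpina5 and Serpinf1, which did not pass, did not overlap between the lines either, nor did Serpina1c, whose Cre arrays were all under the floor. The share of all genes without overlap was not computed, so the lack of overlap is not read as particular to these members. Serpinb1a, Serpini1 and Serpinb9 lost their calls in some of the alternative runs. No tested member had an Sf1-Cre array that stood apart from the other 3 by Dixon's criterion (0 of 17).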

How the results depend on the processing

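Of the counts recomputed under each setting, 696 stayed within 1.5 times of the reported value and 96 moved. Named genes kept their direction and side of the threshold in 2672 cases, lost a call in 70, gained one in 37 and turned in 11. Housekeeping centring turned Serpina5 (-0.57), Serpinb6a (-0.83), Masp2 (-0.56) and Plin2 (-0.83) in Sf1-Cre, and Serpina5 (-0.20), Serpinb6a (-0.81), Serpinb8 (-1.20), Plin2 (-1.30), Wfdc1 (-0.00871) and Dmrt1 (-0.14) in Dhh-Cre, and averaging probe sets turned Cast (-0.54) in Dhh-Cre. Housekeeping centring gave 10 members higher and 4 lower in Sf1-Cre (clade A 2 lower, clade B 3 higher and 2 lower) and 7 higher and 5 lower in Dhh-Cre (clade A 1 and 2, clade B 3 lower); proteases then had 9 and 7 higher, receptors 5 higher and 5 lower, and 4 and 4, other inhibitors 5 and 12, and 5 and 11. The share of higher calls went to 17.8% and 19.1%, from 58.4% and 61.7%. Without a filter 8 members fell in Sf1-Cre and 9 in Dhh-Cre (clade A 4, clade B 3), with 11 proteases lower in Sf1-Cre and 3 between the lines; a floor of log2 6 left 0 Serpin falls, since Serpina1c and Serpinb6c are then not tested, 1 receptor lower in each line, 9 proteases higher in Sf1-Cre, 5 lower in Dhh-Cre, and 5 proteases and 2 receptors higher between the lines. Between the lines, trended robust moderation gave 1 member lower (clade A) and 2 receptors higher, values set to the floor 5 proteases and 2 receptors, the 2 groups alone 5 proteases, averaging probe sets 2 receptors higher and 1 lower (and 1 lower against control in each line), an adjusted p under 0.01 gave 3 members, 1 protease and 1 inhibitor, and a change of log2 1 gave 2 members (clade B 1). Without the 3 high-Spink8 arrays, which leaves Dhh-Cre with 1 array assumed to vary like the other groups, 2 members passed between the lines (clade B 1), with 1 protease higher and 0 lower, and 1 inhibitor higher and 2 lower.

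Leaving out each array in turn gave 0 to 2 falls in Sf1-Cre and 0 to 3 in Dhh-Cre (clade A 0 to 1 and 0 to 2, clade B 0 to 1 in both), 3 to 6 and 5 to 8 falling proteases, 1 to 2 falling receptors in both, 3 to 6 and 3 to 5 falling inhibitors, and between the lines 2 to 6 members (clade B 1 to 4), 1 to 9 proteases higher and 1 to 2 lower, 0 to 1 receptors lower, and 1 to 3 inhibitors higher and 3 to 5 lower. Where this leaves 1 array in a group, that array is assumed to vary like the other groups. The 0 falls come from leaving out a control array. Apart from those, the cause of these moves was not tested.

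Whether replicate numbers pair the samples was not settled. Deviations of same-numbered arrays from their group means had correlations of 0.0203 and -0.144 for Sf1-Cre with control, and -0.194 and 0.38 for Sf1-Cre with Dhh-Cre. For Dhh-Cre with control both numbers gave 0.0294, since deviations in groups of 2 arrays mirror each other. Differently numbered arrays were not correlated for comparison, so these values cannot show whether the samples are paired. With the number as a block 3 members and 5 proteases were higher between the lines.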
